A study of Rattus norvegicus with 8 samples.

Results

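The Sprouty and Spred genes were examined in the striatum of rats that had self-administered methamphetamine (METH) or saline. The 7 members, Spry1, Spry2, Spry3, Spry4, Spred1, Spred2 and Spred3, were taken by gene family name from the 17337 genes of the count table. Earlier results of these data were known when this family was chosen. All 7 passed the low-count filter that left 12014 genes for testing. The animals were wild-type male Sprague-Dawley rats, 4 per group. Rats of the METH group pressed a lever for intravenous METH at 0.05 mg/kg per infusion in daily sessions of 2 h, and rats of the saline group received saline on the same schedule. All rats shared food training, jugular catheter surgery and ketamine with xylazine before the brain was taken, and were kept for their steady lever pressing. Their age and the interval from the last session to sampling are not given in the sources used here.

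Sprouty proteins (Spry1 to Spry4) and Spred proteins (Spred1 to Spred3) are intracellular inhibitors of the Ras, Raf, MEK and ERK kinase cascade, which growth factors switch on through receptor tyrosine kinases. They share a cysteine-rich C-terminal region. Transcription of several of these genes is itself raised by ERK activity, so that they form a negative feedback loop. Spred proteins carry in addition an EVH1 domain, and Spred1 brings the Ras inactivator neurofibromin to the membrane. In the striatum, ERK is switched on by dopamine and glutamate acting together on projection neurons, and psychostimulants are known for this effect.

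None of the 7 genes passed the test across all genes in METH rats against saline rats. Spry2 and Spry4 came nearest, with levels 1.29 and 1.59 times those of saline rats in the fit, and in both genes every METH rat lay above every saline rat. The other 5 members had positive log2 fold changes between 0.09 and 0.48, with intervals that included 0 and with overlapping groups. A gene was called when its false discovery rate (FDR, the Benjamini-Hochberg adjusted p from edgeR's quasi-likelihood test) was below 0.05 and its mean log2 CPM (counts scaled to library size) was above 1. By this rule 0 of 7 members were called, against 0.516% of all genes tested, 0.449% higher and 0.0666% lower. At an unadjusted p below 0.05, 2 of 7 members were higher and 0 were lower, beside 6.26% and 4.88% of all genes. The groups did not overlap, with METH rats higher, in 2 of 7 members and in 3.75% of all genes. The median log2 fold change of the 7 members was 0.31, and that of all genes tested was -0.01. As earlier results of these data were known when the members were chosen, these counts and medians are no independent evidence of a direction.

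Because Spry2 and Spry4 were the members whose groups did not overlap, the 250 bases before their transcription start are shown. Both were taken from the RefSeq promoter table of assembly GRCr8, in which 7 of 7 members were found. The table places the Spry2 stretch at chr15:89111927-89112176 and the Spry4 stretch at chr18:30702547-30702796, both on the minus strand and written 5′ to 3′ in the direction of transcription. Capitals mark matches to the ETS core CCGGAA and to the cAMP response element core TGACG, on either strand.
Spry2: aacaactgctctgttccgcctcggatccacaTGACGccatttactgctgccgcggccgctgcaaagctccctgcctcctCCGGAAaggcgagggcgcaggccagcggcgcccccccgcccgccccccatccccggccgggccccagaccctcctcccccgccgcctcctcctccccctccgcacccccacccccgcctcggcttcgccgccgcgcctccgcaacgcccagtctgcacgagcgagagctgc
Spry4: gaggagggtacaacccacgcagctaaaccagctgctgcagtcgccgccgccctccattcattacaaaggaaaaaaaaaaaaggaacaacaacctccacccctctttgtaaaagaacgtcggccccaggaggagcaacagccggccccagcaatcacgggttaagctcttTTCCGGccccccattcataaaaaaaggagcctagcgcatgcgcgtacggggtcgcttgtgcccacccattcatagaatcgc

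ETS factors and CREB are transcription factors that act downstream of ERK and of cAMP. The ETS core lay 171 bases before the start of Spry2, and on the opposite strand 81 bases before the start of Spry4. It was in the windows of these 2 members and of no other member, where a window runs from 250 bases before to 50 bases after a start. Across all 33469 windows of the table, 15.0% held this core on either strand. The core of the cAMP response element was found in the window of Spry2, 219 bases before its start, and on the opposite strand in that of Spred2, and in 21.2% of all windows. The full cAMP response element TGACGTCA (1.83% of all windows), the CArG box of serum response factor (1.64%), the AP-1 site (TGACTCA or TGAGTCA, 4.63%) and the EGR site GCGTGGGCG (0.544%) matched in none of the members' windows. A second listed start of Spry2 had no match to any of these motifs. These matches describe letters in a short window and are not evidence of binding.

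The libraries held between 18135939 and 21211920 counts. METH replicate 3 stood apart on the first principal component, at 39.5 against 0.26 to 5.29 in the other METH rats, and saline replicate 3 lay at -24.6 against -11.7 to -4.17 in the other saline rats. The log2 fold changes of Spry2 and Spry4 were 0.36 and 0.67 with all rats, 0.40 and 0.68 without METH replicate 3, and 0.31 and 0.53 without saline replicate 3, the lowest for both genes when any one rat was left out. Markers of striatal projection neurons, such as Ppp1r1b and Drd1, were present in every rat. Their summed level over 11 genes was 14903 to 15786 CPM in saline rats and 15804 to 19769 CPM in METH rats. In this sum every METH rat lay above every saline rat, by 15804 against 15786 CPM at the nearest. The groups overlapped in each of the 11 genes taken singly, and 0 were called. Ppp1r1b, the largest part of the sum, averaged 7167 CPM in saline rats and 8496 CPM in METH rats. Log2 fold changes were positive in 7 of the 11 and negative in 4. At an unadjusted p below 0.05 in the edgeR test, 3 of 11 were higher and 0 lower, beside 6.26% and 4.88% of all genes. The summed level of 5 cortical markers was 93.0 CPM in saline replicate 1 and 11.0 to 25.5 CPM in the other rats. That of 6 hypothalamic peptide genes was 74.3 CPM in METH replicate 4, 38.5 CPM in saline replicate 2 and 6.05 to 11.4 CPM in the remaining rats. Without saline replicate 1 the log2 fold changes of Spry2 and Spry4 were 0.42 and 0.68, and without METH replicate 4 they were 0.36 and 0.60. They were 0.35 and 0.67 without saline replicate 2. Of 7 oligodendrocyte precursor markers, 6 were tested, 0 were called and 6 had negative log2 fold changes, and the sum over the list was 595.5 to 762.4 CPM in saline rats and 566.1 to 743.2 CPM in METH rats. Among 7 microglial markers, Cx3cr1 was called lower, and the sum was 308.0 to 360.0 CPM in saline rats and 271.7 to 329.5 CPM in METH rats. No marker of astrocytes, oligodendrocytes, interneurons, endothelial cells, mural cells or choroid plexus was called. At an unadjusted p below 0.05 in the edgeR test, 3 of 6 precursor markers, 2 of 7 microglial and 2 of 6 endothelial markers were lower and 0 higher. Of 5 mural markers, 2 were lower and 1 higher, and of 2 choroid plexus markers 1 was higher. For astrocytes, oligodendrocytes and interneurons both counts were 0. Among all genes the shares were 4.88% lower and 6.26% higher. The part of these markers in the values of the Sprouty and Spred genes was not tested.

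Spry2 encodes a Sprouty protein that binds the adaptor Grb2 and the ubiquitin ligase Cbl once a receptor has been activated. Its level was 92.6, 80.8, 73.8 and 88.2 CPM in saline replicates 1 to 4 and 118.3, 102.8, 101.1 and 109.7 CPM in METH replicates 1 to 4. The lowest METH rat was thus above the highest saline rat, and METH replicate 1 was the highest of all rats. Saline rats averaged 83.9 ± 8.27 CPM and METH rats 108.0 ± 7.82 CPM (mean ± SD, n = 4 each). METH rats differed from saline rats by a log2 fold change of 0.36 (standard error 0.09, 95% interval 0.18 to 0.55), at an FDR of 0.117 in the edgeR quasi-likelihood test. The exact permutation test of log2 CPM gave a two-sided p of 0.0286, which is the smallest that 4 rats against 4 allow. This value follows from the lack of overlap and is no second line of evidence. Spry2 ranked 110 of 12014 genes by p. As striatal tissue was sequenced whole, more cells of a type and more RNA per cell cannot be told apart here.

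Spry4, a Sprouty protein that can block the activation of Ras and Raf, had a lower count and a wider spread among saline rats. It was read 176, 190, 136 and 268 times in saline replicates 1 to 4, which corresponds to 9.66, 9.50, 6.57 and 12.7 CPM. In METH replicates 1 to 4 it was read 278, 317, 266 and 332 times, or at 13.6, 15.1, 15.0 and 17.5 CPM. Saline replicate 4 came within 1 CPM of METH replicate 1, and the groups did not overlap. Saline rats averaged 9.60 ± 2.49 CPM and METH rats 15.3 ± 1.62 CPM (mean ± SD, n = 4 each). Between them the log2 fold change was 0.67 (standard error 0.18, 95% interval 0.29 to 1.06), with an FDR of 0.165 in the edgeR quasi-likelihood test. The two-sided exact permutation p of 0.0286 again only restates the lack of overlap. Spry4 ranked 157 of 12014 genes by p. Both Spry2 and Spry4 were called with the Wald test of DESeq2, at an FDR of 0.0144 and 0.0306. That test called 1.17% of its genes higher in METH rats. The FDR over all alternatives ranged from 0.0144 to 0.285 for Spry2 and from 0.0306 to 0.343 for Spry4, and no other alternative called either gene.

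**Figure D1:**
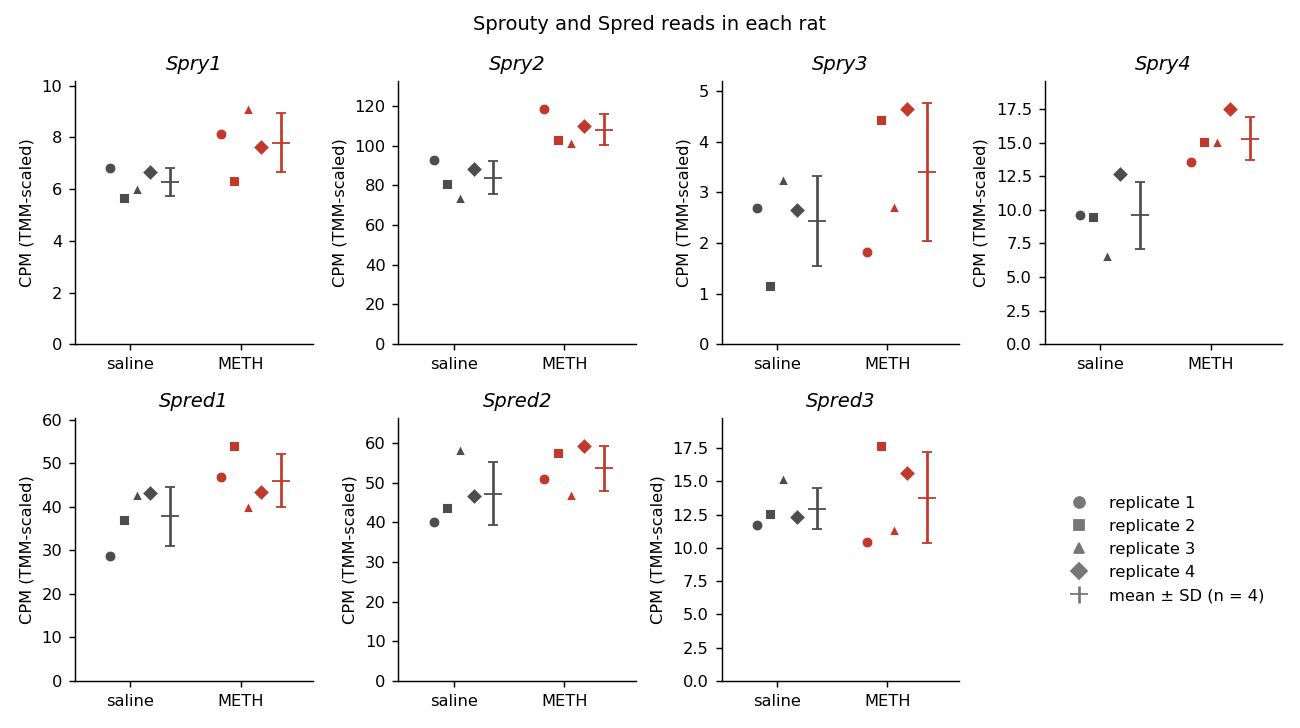
CPM (library-scaled counts, vertical axes from 0, each gene on its own scale) of the 7 Sprouty and Spred genes in 4 saline rats (grey) and 4 METH rats (red). Marker shapes give the replicate and bars the mean ± SD. In Spry2 (saline up to 92.6, METH from 101.1 CPM) and Spry4 (saline up to 12.7, METH from 13.6 CPM) the groups do not overlap, and in the other 5 genes they do.

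Spry1, a further Sprouty inhibitor of growth factor signaling, was at 6.80, 5.65, 5.99 and 6.66 CPM in saline replicates 1 to 4 and at 8.12, 6.33, 9.09 and 7.64 CPM in METH replicates 1 to 4. Of the METH rats, 3 lay above all saline rats and METH replicate 2 lay within their range. The log2 fold change was 0.31 (standard error 0.17, 95% interval -0.05 to 0.68), and the FDR was 0.504 in the edgeR quasi-likelihood test. The exact permutation test gave a two-sided p of 0.0857.

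Spry3 had the fewest reads, between 23 and 93 per rat, and the largest spread within groups. Saline replicate 2 was at 1.15 CPM and the other saline rats between 2.65 and 3.24 CPM, while METH rats ran from 1.81 CPM in replicate 1 to 4.64 CPM in replicate 4. The coefficient of variation was 36.8% in saline rats and 40.2% in METH rats, against 9.86% and 7.24% for Spry2. The log2 fold change of 0.48 (standard error 0.37) had a 95% interval from -0.30 to 1.27, which holds both 0 and the value of Spry4. It was 0.25 without saline replicate 2 and 0.30 without METH replicate 4. Its FDR was 0.634 in the edgeR quasi-likelihood test. The RefSeq table of GRCr8 lists a pseudogene copy, Spry3-ps1, and a gene, LOC134481269, whose span overlaps Spry3, and whether the annotation used for counting on rn6 held them is not known here.

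Spred1, the Spred protein best known for recruiting neurofibromin, was at 28.6, 37.0, 42.7 and 43.1 CPM in saline replicates 1 to 4. It was at 46.8, 54.0, 39.9 and 43.4 CPM in METH replicates 1 to 4. METH replicate 3 lay inside the range of the saline rats, and saline replicate 1 was the lowest of all. Its log2 fold change was 0.28 (standard error 0.13, 95% interval -0.003 to 0.57), with an FDR of 0.452 in the edgeR quasi-likelihood test and a two-sided exact permutation p of 0.114. Without saline replicate 1 the log2 fold change was 0.17.

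Spred2, a close relative of Spred1, was at 40.2, 43.5, 58.3 and 46.7 CPM in saline replicates 1 to 4 and at 50.8, 57.4, 46.8 and 59.2 CPM in METH replicates 1 to 4. Saline replicate 3 was above 3 of the 4 METH rats. For Spred2 the log2 fold change was 0.18 (standard error 0.12, 95% interval -0.07 to 0.44, FDR = 0.565 by the edgeR quasi-likelihood test). It was 0.11 without saline replicate 1 and 0.30 without saline replicate 3.

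Spred3, the third Spred protein, was at 11.7, 12.5, 15.2 and 12.3 CPM in saline replicates 1 to 4. In METH replicates 1 to 4 it was at 10.5, 17.7, 11.3 and 15.6 CPM, with 2 rats below and 2 above all saline rats. The log2 fold change was 0.09 (standard error 0.17, 95% interval -0.28 to 0.46, FDR = 0.872 by the edgeR quasi-likelihood test), and its sign turned, to -0.05, without METH replicate 2. In the same GRCr8 table the span of Spred3 overlaps that of another gene, LOC103689966, and that of Spred1 overlaps a pseudogene, Eno1-ps25. Again there is no record here of the annotation used for counting.

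**Figure D2:**
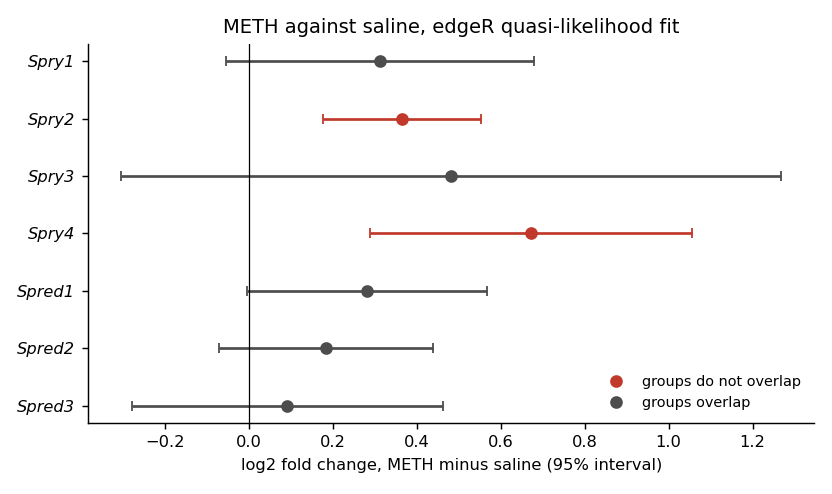
Log2 fold changes of METH minus saline (horizontal axis) for the 7 genes, with 95% intervals from the edgeR quasi-likelihood fit of 4 against 4 rats. Red marks genes whose groups do not overlap (Spry2, 0.36, and Spry4, 0.67), and their intervals lie above 0, while those of the other 5 genes, in grey, include 0.

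The members differed in which rats were high and low. Saline replicate 1 was the lowest saline rat in all 3 Spred genes and the highest in Spry1 and Spry2. As a deviation in log2 CPM from the mean of its group, Spred1 was at -0.38 in this rat and Spry2 at 0.15. Saline replicate 3 was the lowest saline rat in Spry2 (-0.18) and Spry4 (-0.50) and the highest in Spred2 (0.32) and Spred3 (0.24). Among METH rats, replicate 3 was the highest in Spry1 and the lowest in Spry2, Spred1 and Spred2. METH replicate 4 was the highest in Spry3, Spry4 and Spred2. Summed over the 4 Sprouty genes, levels ran from 89.6 to 111.8 CPM in saline rats and from 127.9 to 141.8 CPM in METH rats, without overlap. Spry2 contributed between 78.7% and 83.4% of these reads in every rat, so that this sum mostly repeats Spry2. Summed over the 3 Spred genes, levels ran from 80.4 to 116.2 CPM in saline rats and from 98.0 to 129.0 CPM in METH rats, and overlapped.

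**Figure D3:**
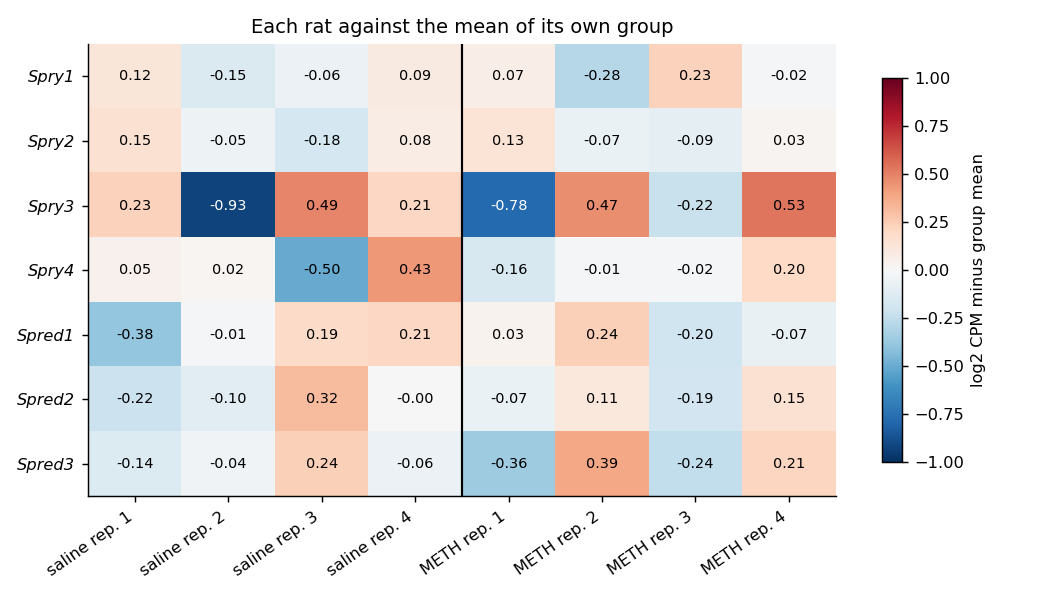
Deviation of each rat from the mean of its own group, in log2 CPM (color scale and printed values), for the 7 genes (rows) in 4 saline and 4 METH rats (columns, parted by the line). Saline replicate 1 is negative for the 3 Spred genes (Spred1, -0.38) and positive for the 4 Sprouty genes, and Spry3 has the widest range, from -0.93 to 0.53.

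The ratio of 2 members within a rat needs no library scaling. For 21 of 21 pairs of members, the log2 ratio of their counts overlapped between the groups. The pair with the widest difference was Spry4 to Spred3, whose log2 ratio ran from -1.20 to 0.04 in saline rats and from -0.23 to 0.40 in METH rats. For Spry2 to Spry4 the log2 ratio ran between 2.80 and 3.49 in saline rats and between 2.65 and 3.12 in METH rats. Thus no pair of members separated the groups by its ratio, and no test was run on these ratios. Each member takes part in several pairs, so the pairs are not independent of each other. How often the ratios of other gene pairs overlap was not counted. The count of overlapping pairs therefore cannot show whether the members differ from other genes in this respect.

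The genes whose log2 CPM followed a member most closely over the 8 rats were found by Pearson correlation, as a description in which the difference between the groups itself takes part. For Spry2 these were RGD1561282 (r = 0.965), Pdcd6 (0.964) and Egr2 (0.960). For Spry4 they were Il16 (0.954), Pnpla7 (0.944) and Tmem39b (0.943). Spry1 was closest to Napa (0.980), Enkd1 (0.970) and Nosip (0.958). Spry3 was closest to Smap2 (0.960), Scg2 (0.948) and Srrm2 (0.946). Spred1 was closest to Btaf1 (0.979), Add1 (0.955) and Enah (0.939). Spred2 was closest to Tbc1d9 (0.973), Dnaja4 (0.973) and Man2a1 (0.962), and Spred3 to Wipf2 (0.936), Rnf115 (0.927) and Chpf2 (0.922). Egr2, an immediate early transcription factor, was the one gene among these 21 with a called change (log2 fold change 2.45, FDR = 0.00413 by edgeR), and RGD1561282 was at only 0.09 CPM in saline rats and 0.74 CPM in METH rats on average.

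The genes around the Sprouty and Spred proteins in the pathway were taken up next, from upstream to downstream. Of 20 receptor tyrosine kinases tested, 0 were called in either direction, and the median log2 fold change was -0.18. At an unadjusted p below 0.05 in the edgeR test, 6 of these receptors were lower and 1 was higher, beside 4.88% and 6.26% of all genes. METH rats lay below saline rats without overlap in 2 of the 20, beside 2.65% of all genes. Erbb3, a neuregulin receptor, was nearest to a call, at 34.3, 35.8, 36.3 and 38.3 CPM in saline replicates 1 to 4 and 25.5, 28.4, 28.9 and 23.8 CPM in METH replicates 1 to 4. Its log2 fold change was -0.44 (FDR = 0.0632 by the edgeR quasi-likelihood test). Pdgfra, the receptor for platelet-derived growth factor that marks oligodendrocyte precursors, was next, with a log2 fold change of -0.32 (FDR = 0.193, same edgeR test).

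Of 25 ligands of such receptors, 24 were listed and 18 were tested, 0 were called, and the median was 0.05. Vegfa, the vascular endothelial growth factor, had a log2 fold change of 0.38 (FDR = 0.200, edgeR), and Nrg1, a ligand of the Erbb receptors, one of 0.56 (FDR = 0.379, edgeR). Among 23 adaptors and Ras regulators, 0 were called and the median was -0.12. Rasgrf1, a calcium-dependent Ras activator of neurons, had a log2 fold change of -0.34 (FDR = 0.268, edgeR), and Rasa3, a Ras inactivator, one of -0.31 (FDR = 0.332, edgeR). Nf1, which encodes neurofibromin, the partner of Spred1, was at -0.14 (FDR = 0.784, edgeR).

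In the Ras, Raf, MEK and ERK core, 19 of 21 listed genes were tested, 0 were called and the median was -0.002. Braf and Ksr2 were absent from the deposited gene symbols, so their levels are not known here. The kinases Rps6ka1 and Mknk2, both activated by ERK, had log2 fold changes of -0.29 (FDR = 0.358, edgeR) and 0.23 (FDR = 0.379, edgeR). Of the binding partners of Sprouty and Spred proteins, 11 of 13 were tested, 0 were called and the median was -0.03. Cbl and Siah1a were likewise absent from the deposited gene symbols. Tesk1, a kinase that binds both families, had a log2 fold change of 0.25 (FDR = 0.379, edgeR), and Cblb, a ubiquitin ligase, one of -0.45 (FDR = 0.441, edgeR).

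Further inhibitors that act as feedback on the pathway were described next. Of these other feedback inhibitors, 10 of 13 were tested, and 2 were called higher and 0 lower, beside 0.449% and 0.0666% of all genes. The median of the list was 0.39. Lrig1 and Lrig3 were absent from the deposited gene symbols. Dusp4 and Dusp5, nuclear phosphatases that remove phosphate from ERK, rose by 1.39 (FDR = 0.00895, edgeR) and 1.50 (FDR = 0.0133, edgeR) on the log2 scale. Dusp4 was between 3.00 and 5.15 CPM in saline rats and between 7.63 and 12.9 CPM in METH rats. Dusp5 was between 5.84 and 10.2 CPM in saline rats and between 12.6 and 27.4 CPM in METH rats, and its call was lost without saline replicate 2, without saline replicate 4 or without METH replicate 3, where Dusp4 alone was called. Dusp6, a cytoplasmic ERK phosphatase, had a log2 fold change of 0.61 (FDR = 0.132, edgeR), and Errfi1, an inhibitor of Egfr, one of 0.13 (FDR = 0.559, edgeR). Dusp1, Dusp2 and Pebp1 were not called either, at 0.88 (FDR = 0.183, edgeR), 0.71 (FDR = 0.132, edgeR) and 0.17 (FDR = 0.441, edgeR). At an unadjusted p below 0.05 in the edgeR test, 6 of the 10 tested were higher and 1 lower, beside 6.26% and 4.88% of all genes. METH rats were higher without overlap in 3 of the 10, beside 3.75% of all genes. This list, like the members, was drawn up with earlier results of these data known. Of the 10 tested, 7 had positive and 3 negative log2 fold changes. The negative ones were Dusp7 at -0.24 (FDR = 0.304, edgeR), Il17rd at -0.80 (FDR = 0.512, edgeR) and Lrig2 at -0.13 (FDR = 0.799, edgeR).

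Of 19 ERK-responsive transcripts, all tested, 9 were called higher and 0 lower, beside 0.449% and 0.0666% of all genes. The median of the list was 0.35. Fosl2 rose by 2.05 (FDR = 0.000188, edgeR) and Egr4 by 1.66 (FDR = 0.000188, edgeR) on the log2 scale. Junb rose by 1.50 (FDR = 0.00172, edgeR) and Fosb by 1.26 (FDR = 0.00306, edgeR). All of these encode transcription factors of the early response. The ETS factors Etv1, Etv4 and Etv5, which are often read out together with Sprouty genes, were not called, at -0.08, 0.22 and 0.35. Ier3, an early response gene, had a log2 fold change in the other direction, at -0.71 (FDR = 0.222, edgeR). It went from 6.36 ± 1.36 CPM in saline rats to 3.88 ± 0.51 CPM in METH rats (mean ± SD, n = 4 each). Its groups did not overlap, as in 2.65% of all genes with METH rats lower. Leaving out each rat in turn gave between 7 and 9 called genes of this list. As earlier results of these data were known when the list was drawn up, its count is no independent evidence of a direction.

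**Figure D4:**
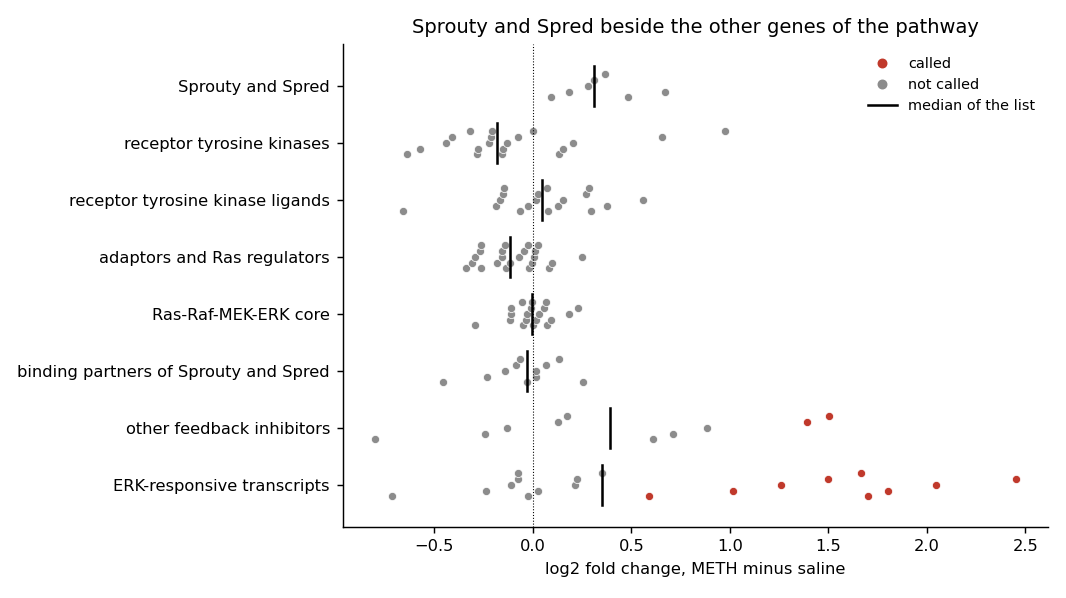
Log2 fold changes of METH minus saline (horizontal axis) for each tested gene of the 8 lists (rows, points spread vertically for visibility only), with called genes in red and the median of each list as a black line. The 7 Sprouty and Spred genes lie between 0.09 and 0.67 with none called, and the called genes are 2 other feedback inhibitors and 9 ERK-responsive transcripts.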

How the data were processed

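Striatal mRNA was captured by poly(A) selection and sequenced in 8 rats. The authors removed adapters from the paired-end reads (cutadapt 1.18), mapped them to the rn6 assembly (STAR 2.7.0e) and deposited raw counts per gene symbol from featureCounts (Subread 1.6.4), 1 column per rat. Gene annotation, strand setting and the treatment of reads with several matches are not given in the sources used here. Columns were assigned by group and rat number.

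Counts were analysed with R 4.3.3 and edgeR 4.0.16: filterByExpr (minimum count 10), TMM scaling and the quasi-likelihood F-test, Benjamini-Hochberg adjusted over 12014 genes. Intervals are 95% intervals on 13.4 degrees of freedom, with the standard error taken from F. CPM are TMM-scaled, and log2 CPM for the exact permutation test (70 labelings) used a prior count of 2. Within-rat ratios added 0.5 to each count. Depth was 18135939 to 21211920 counts, at which 3 counts equal 0.142 to 0.169 CPM. Rats are separate animals, and no library of a group repeated another. Alternatives used DESeq2 1.42.0, limma 3.58.1 (voom), other scalings and filters, each rat left out and the rat number as a block.

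The members and lists were chosen with earlier results of these data known. Named from each pathway list are up to 4 called genes with the lowest p, or, with under 2 called, the 2 lowest. The further genes Nf1, Dusp1, Dusp2, Dusp6, Dusp7, Errfi1, Il17rd, Lrig2, Pebp1, Etv1, Etv4, Etv5, Ier3 and Cx3cr1 were chosen after their values were seen. Coordinates come from GRCr8 and were not mixed with rn6.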

Additional observations from a re-analysis of the deposited data

How the results depend on the processing

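Over the 17 alternatives, 0 of the 7 members were called, except with the Wald test of DESeq2, which called 2, Spry2 (log2 fold change 0.36) and Spry4 (0.67), and 186 genes in all against 62. The cause of this difference was not tested. Of all genes, 37 were called with the replicate block, that is with the rat number of the labels as a block, under which the FDR of Spry2 was 0.181 and that of Spry4 0.231 in the edgeR quasi-likelihood test. The numbers name different animals, and rats with the same number had deviations from their group means that correlated at -0.20 to 0.04. Whether rats with the same number were handled together is not given in the sources used here, and these correlations cannot decide it. With each rat left out in turn, between 37 and 70 genes were called, the lowest count being without saline replicate 2. The log2 fold changes then ranged from 0.31 to 0.42 for Spry2, 0.53 to 0.84 for Spry4, 0.23 to 0.40 for Spry1, 0.25 to 0.69 for Spry3, 0.17 to 0.35 for Spred1, 0.11 to 0.30 for Spred2 and -0.0526 to 0.203 for Spred3. Spred3 had the one change of sign, without METH replicate 2. The number of other feedback inhibitors called ranged from 1 to 3, and that of ERK-responsive transcripts from 7 to 9. These list counts without a rat were added after the data were seen. Scaling by total counts moved the median of all genes from -0.01 to -0.04. Depth limits Spry3, with 23 to 93 counts per rat.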
